A study of Arabidopsis thaliana with 3 samples.

Results

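Cytochrome P450s are haem-thiolate enzymes that split molecular oxygen and put one of its atoms into a substrate, with electrons passed on by a reductase. In plants they form one of the largest enzyme families. They carry out steps in the synthesis and breakdown of brassinosteroids, gibberellins, abscisic acid, cytokinins and jasmonates, and in the making of sterols, carotenoids, lignin, cutin, glucosinolates and terpenoids. Many members lie in tandem arrays of recent duplicates. Gene body methylation is methylation of CG dinucleotides inside transcribed genes, without the CHG and CHH methylation (H stands for A, C or T) that marks silenced sequence. CG sites are symmetrical and methylated cytosines tend to be lost by deamination over evolutionary time.

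The P450 genes were the 248 protein-coding genes of *Arabidopsis thaliana*, of 27444 on the nuclear chromosomes, whose annotated product begins with "cytochrome P450". The rule used only the annotation and no methylation value. Enzymes annotated by an enzyme name alone, such as the cinnamate hydroxylase (CYP73A5) or allene oxide synthase (CYP74A1), were therefore not members. As a check of the name, the coding sequences were translated and searched for the haem-binding signature of the family (the PROSITE pattern around the cysteine that holds the haem iron). It was found in 218 of the 248 members and in 10 other genes. The 30 members without it included enzymes of known activity such as CYP735A1, a cytokinin hydroxylase, and short genes such as AT1G58265 (480 bp), so the pattern alone does not decide membership.

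Bisulfite sequencing was carried out on DNA of mature leaves from 2 *h3.3kd* samples and 1 wild-type (WT) sample, all in the Col-0 ecotype. The histone variant H3.3 is encoded by *HTR4*, *HTR5* and *HTR8*. According to the methods of the study, *h3.3kd* plants were homozygous for the T-DNA alleles *htr4-2* and *htr8-2* and carried a transgene for an artificial microRNA, *amiR-HTR5-II*, against *HTR5*. The WT plants carried none of these. The methods name the lines *h3.3kd-2* and *h3.3kd-3* for this assay, and the labels do not say which line each *h3.3kd* sample is, nor how many plants went into a sample. The libraries held 822515332 and 842326850 cytosine calls in *h3.3kd* and 839704204 in WT, or 19.2, 19.7 and 19.6 calls per cytosine of the genome. With 1 WT library an exact permutation test cannot give a p below 0.333. The Fisher's exact tests below therefore compare libraries and not genotypes, and variation between samples is measured only by how far the pair of *h3.3kd* libraries differ.

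All 248 members passed the minimum, which was 10 sites and 100 calls in the CG context per library. They had 404 to 5866 CG calls each, with a median of 2306 in WT. Depth over the members relative to WT ran between 0.759 and 1.19 in *h3.3kd* replicate 1 and between 0.863 and 1.17 in replicate 2, after scaling to library totals. Of the 248 genes, 39 overlapped another protein-coding gene, 145 had another member within 10 kb, and 74 lay in 13 runs of at least 4 members. Reads from near-identical members of a run could be assigned to the wrong copy, and the number of reads affected was not measured.

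Examples of single CG sites that differed between the libraries are given here, to show the sequence in which such differences lay in genes described below. Each is 30 bases of the sense strand, 5′ to 3′, from the TAIR10.1 assembly, with the CG dinucleotide (both strands of it summed) in capitals. Each is the site with the most extreme difference in its gene among those whose 30 bases lay wholly in coding sequence or in an intron, chosen for that value, so they are a description and carry no test.
CYP86C2, chr3:9552595-9552624, plus strand: gttcacaactttatCGacaagatggttgtt
CYP72A7, chr3:4913797-4913826, plus strand: gttgttttatttcgCGggacaagagacaac
CYP71B9, chr2:702753-702782, plus strand: ggtggctggatcatCGactggctcacgggt
CYP98A8, chr1:28014401-28014430, plus strand: ttaaagaagctctcCGgcttcacccgtcaa
CYP93D1, chr5:2137260-2137289, minus strand: ttaaatgaactagcCGgatttttcaacgtt
AT4G12334, chr4:7320883-7320912, minus strand: taactaaggaaatgCGagttcatgtcgaaa
CYP704B1, chr1:26125213-26125242, plus strand: agcgactaatacatCGttgcatcaatacga

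The CYP86C2 site, in the single exon of the gene, was methylated in 3.57% of 28 calls and 0% of 27 calls in *h3.3kd*, against 100% of 30 calls in WT. The CYP72A7 site stood at 0% and 3.45% in *h3.3kd* and 69.2% in WT. The CYP71B9 site stood at 0% in both *h3.3kd* libraries and 85.3% in WT, and the CYP98A8 site at 0% in both and 95.2% in WT. These 4 sites were thus nearly empty in both knockdown libraries and mostly methylated in WT. The remaining 3 sites went the other way. The CYP93D1 site was methylated in 73.8% and 72.1% of calls in *h3.3kd* and in 0% of 37 calls in WT. The AT4G12334 site, in an intron, was at 67.5% and 68.8% in *h3.3kd* and 3.57% in WT, and the CYP704B1 site was at 92.7% and 85.4% in *h3.3kd* and 1.961% in WT.

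Over all 248 gene bodies pooled, CG methylation was 5.98% and 5.82% in the *h3.3kd* libraries (mean 5.90% ± 0.112, SD, n = 2) and 6.58% in WT. The 95% Wilson intervals, which cover counting error only, were 5.92% to 6.04%, 5.76% to 5.88% and 6.52% to 6.65%. The *h3.3kd* mean lay 0.685 points below WT (-0.685), or -10.4% of the WT level, while the *h3.3kd* libraries differed from each other by 0.159 points (-0.159). The other protein-coding genes had 14.8% ± 0.285 in *h3.3kd* and 16.8% in WT, a difference of -1.91 points or -11.4% of the WT level. The P450 family was thus less methylated than the other genes in all 3 libraries. Whether the sets differ in the proportion lost was not tested.

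The size of the difference varied along the gene. In the first 30% of the members 1 kb or longer (242 genes), CG methylation was 3.04% ± 0.196 in *h3.3kd* and 3.36% in WT, a difference of -0.319 points. In the last 30% it was 6.46% ± 0.0228 in *h3.3kd* and 7.46% in WT, a difference of -1.001 points. The 5′ difference was of the order of the spread between the *h3.3kd* libraries (-0.277 points for replicate 2 minus replicate 1), whereas at the 3′ end the *h3.3kd* libraries differed by 0.0322 points. The other genes had 16.7% ± 0.667 in *h3.3kd* and 20.6% in WT in their last 30%, a difference of -3.88 points. In their first 30% the difference was -0.444 points. Relative to the WT level, the first and last 30% changed by -9.48% and -13.4% in the P450 genes. In the other genes they changed by -6.965% and -18.9%. The broad hump of methylation toward the 3′ end that the other genes showed was low and uneven in the P450 genes. Among the P450 body bins the gap was widest in bin 17 of 20, with 5.59% in *h3.3kd* and 7.34% in WT.

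**Figure D1:**
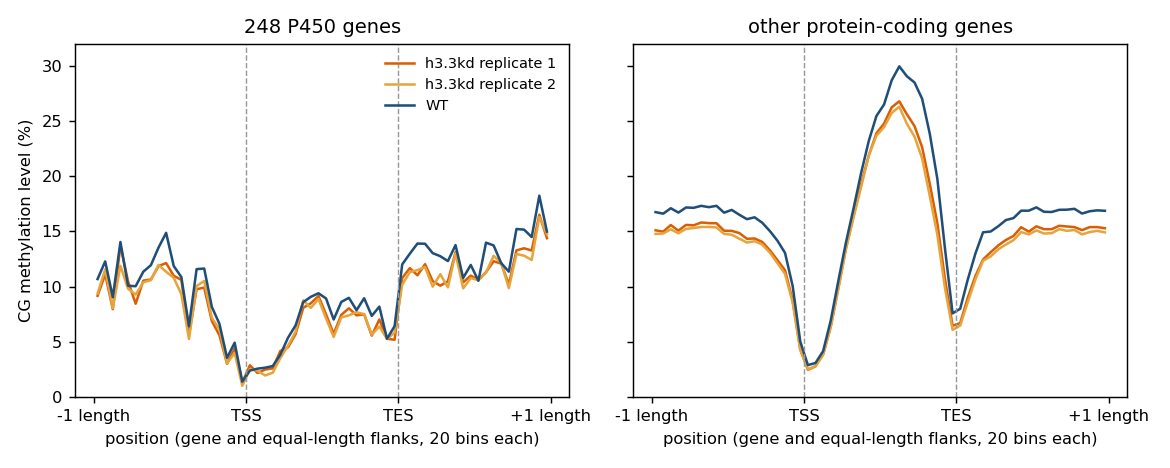
CG methylation level (%) of the P450 genes (left) and of the other protein-coding genes (right), over 20 bins of the gene body between transcription start site (TSS) and transcription end site (TES) and 20 bins of each flank of the same length. Only genes of 1 kb or longer are included (242 P450 genes and 22825 others), although the panel title gives all 248 members. Each line is 1 library. The body bins of the P450 genes peak at 9.01% (mean) in *h3.3kd* and 9.39% in WT, those of the other genes at 26.6% (mean) in *h3.3kd* and 29.97% in WT.

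The parts of the gene model also differed. P450 coding sequence had 6.04% ± 0.180 CG methylation in *h3.3kd* and 6.62% in WT. Introns had 8.19% ± 0.321 in *h3.3kd* and 9.45% in WT, and untranslated regions 2.52% ± 0.0103 in *h3.3kd* and 3.37% in WT. Intron here meant gene body outside the exons of the transcript with the longest coding sequence. It can include sequence beyond the ends of that transcript. The 1 kb upstream of the start site had 7.26% ± 0.0848 in *h3.3kd* and 8.49% in WT. All of these differences were larger than the spread between the *h3.3kd* libraries.

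Non-CG methylation of P450 bodies was low. CHG methylation was 1.009% ± 0.0116 in *h3.3kd* and 1.17% in WT, and CHH methylation 0.689% ± 0.00312 in *h3.3kd* and 0.744% in WT. In the 236 members with a pooled CHG level under 5%, the CHH level, which includes any unconverted cytosines, was 0.598% and 0.595% in *h3.3kd* and 0.616% in WT. The pooled CHG difference was -0.163 points over all members and -0.0530 points over these 236.

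Most P450 genes carried little gene body methylation. The median CG level of a member in WT was 2.18%, against 5.18% over the 26970 protein-coding genes tested. In WT 120 members (48.4%) were under 2%, against 42.2% of all tested genes, and 58 members (23.4%) had at least 10%, against 41.1% of all tested genes. The number of CG dinucleotides relative to that predicted from base composition had a median of 0.769 in the P450 genes and 0.685 in all tested genes. Across the P450 genes this ratio and the WT CG level had a Spearman correlation of -0.443 (248 genes, which share libraries and, within arrays, ancestry), and across all tested genes of -0.330. Exon number and WT CG level had a Spearman correlation of 0.168 over the members, and gene length and WT CG level one of -0.00641.

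The median difference between *h3.3kd* and WT was -0.0539 points over the members and -0.221 points over all tested genes. In 111 members both *h3.3kd* libraries lay below WT in CG methylation (44.8%, with 51.8% of all tested genes), and in 73 members both lay above it (29.4%, with 25.7% of all tested genes). The other 64 members had WT between the *h3.3kd* libraries or equal to one of them. Without regard to size, 37 members were lower at an FDR under 0.01 in both Fisher's exact tests (14.9%, with 19% of all genes tested) and 23 were higher (9.27%, with 4.84% of all genes tested).

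**Figure D2:**
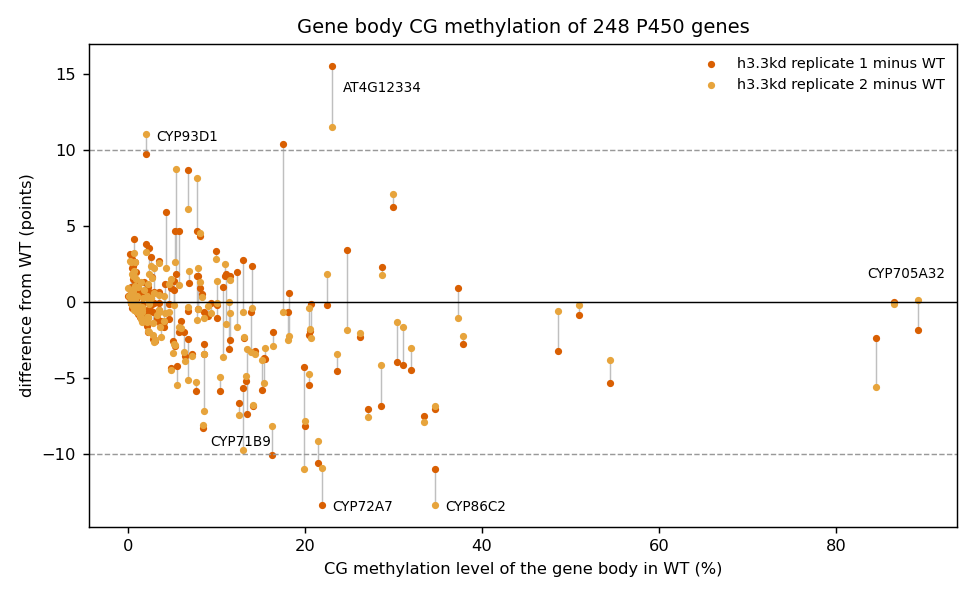
Difference in gene body CG methylation from WT (points, vertical axis) against the WT level (%, horizontal axis) for the 248 P450 genes. Each gene has a point for each *h3.3kd* library, joined by a grey line, and dashed lines mark 10 points. Most points lie within 5 points of 0.

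Members were also grouped by their level pooled over the 3 libraries. The 122 members under 2% CG, with CHG under 5%, had 0.696% ± 0.0264 in *h3.3kd* and 0.776% in WT. The 70 members between 2% and 10% CG had 5.01% ± 0.159 in *h3.3kd* and 5.74% in WT, and the 44 with at least 10% CG had 18.5% ± 0.353 in *h3.3kd* and 20.1% in WT. In each of these classes the pooled level in *h3.3kd* lay below WT by more than its own replicates spread (SD). Over single genes the median difference was -0.00497 points under 2%, -0.0963 points between 2% and 10% and -1.58 points at 10% or more. Both *h3.3kd* libraries were lower in 46, 31 and 26 genes of these classes and higher in 40, 24 and 8. When genes were instead sorted by WT alone on alternate CG dinucleotides and measured on the others, the 127 members under 2% had 1.19% ± 0.0170 in *h3.3kd* and 0.9001% in WT, the opposite sign, so that no direction is given for the members with little methylation. Neighbouring CGs share reads, and the single WT library did the sorting.

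A gene was called changed at an FDR under 0.01 (Fisher's exact test, Benjamini-Hochberg adjustment over all tested genes) and at least 10 points of the same sign in both *h3.3kd* libraries. By this rule CG methylation fell in 2 of the 248 P450 genes (0.806%), beside 1.44% of all tested genes, and rose in 1 (0.403%), beside 0.304% of all tested genes. These shares are near the background, and with so few members called they give no difference between the family and other genes.

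CYP86C2 (AT3G26125, chr3:9551812-9553602), a member of a family of fatty acid hydroxylases, had 23.7% and 21.4% CG methylation in *h3.3kd* and 34.7% in WT. The difference was -12.1 points, with FDRs of 1.43e-16 and 5.55e-25 in the exact tests. Both *h3.3kd* libraries were thus well below WT, and 4 of its 18 tiles of 100 bp fell. The tile centred 1138 bp from the TSS had 0% in both *h3.3kd* libraries and 44.2% in WT, whereas the tile centred 838.5 bp from the TSS had 58.3% and 60.1% in *h3.3kd* and 92.7% in WT. The last of its called tiles overlapped the gene by only 2 bp of untranslated region. The whole gene lies inside AT3G26130, which is annotated on the opposite strand.

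CYP72A7 (AT3G14610, chr3:4912324-4914672), the first gene of the CYP72A array, had 8.57% and 11.0% in *h3.3kd* and 21.9% in WT. The difference was -12.1 points, with FDRs of 1.05e-35 and 7.51e-23 in the exact tests. Both *h3.3kd* libraries were below WT by more than they differed from each other. Of its 22 tiles 5 fell, the one 1526 bp from the TSS with 13.1% and 20.5% in *h3.3kd* and 73.4% in WT. CHG methylation in this gene was under 1% in all libraries.

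AT4G12334 (chr4:7320602-7321061), a 460-bp gene annotated as a P450 without the haem signature at the end of a run of CYP706A genes, had 38.6% and 34.6% in *h3.3kd* and 23.1% in WT. The difference was 13.6 points, with FDRs of 7.41e-09 and 4.64e-06 in the exact tests. Depth over it relative to WT was the lowest of the family, 0.759 and 0.863, and its part in the result was not tested. The rise lay in 1 tile over the intron, with 49.2% and 41.8% in *h3.3kd* and 1.25% in WT.

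Other members had large relative differences without reaching 10 points over the gene. CYP71B9 (AT2G02580) had 0.214% and 0.414% in *h3.3kd* and 8.46% in WT, with FDRs of 1.38e-39 and 2.60e-36 in the exact tests. Its 2 called tiles were at 1.21% or less in *h3.3kd* and at 44.6% and 30.4% in WT. Both *h3.3kd* libraries thus had hardly any CG methylation in this gene. CYP707A1, an abscisic acid 8′-hydroxylase, had 0.549% and 0.311% in *h3.3kd* and 2.93% in WT, and its 1 called tile, mostly intron, had 1.65% and 0% in *h3.3kd* and 22.0% in WT.

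CYP71B10 and CYP708A1 passed 10 points in 1 *h3.3kd* library only. CYP71B10 had 10.9% and 12.3% in *h3.3kd* and 21.5% in WT, and CYP708A1 had 6.21% and 8.08% in *h3.3kd* and 16.2% in WT. In both genes the *h3.3kd* libraries lay closer to each other than to WT.

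Among the members that were higher in *h3.3kd*, CYP93D1 (AT5G06900) had 11.7% and 13.1% in *h3.3kd* and 1.97% in WT, a difference of 10.4 points that missed the call because replicate 1 differed by under 10 points. Its FDRs in the exact tests were 1.65e-29 and 3.27e-36. Of its 17 tiles 4 rose, all mostly coding sequence and at 0% in WT, such as the tile 690.5 bp from the TSS with 32.4% and 31.9% in *h3.3kd*. CYP704B1, a fatty acid hydroxylase of sporopollenin synthesis in pollen walls, had 36.2% and 37.1% in *h3.3kd* and 29.9% in WT, with no called tile.

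**Figure D3:**
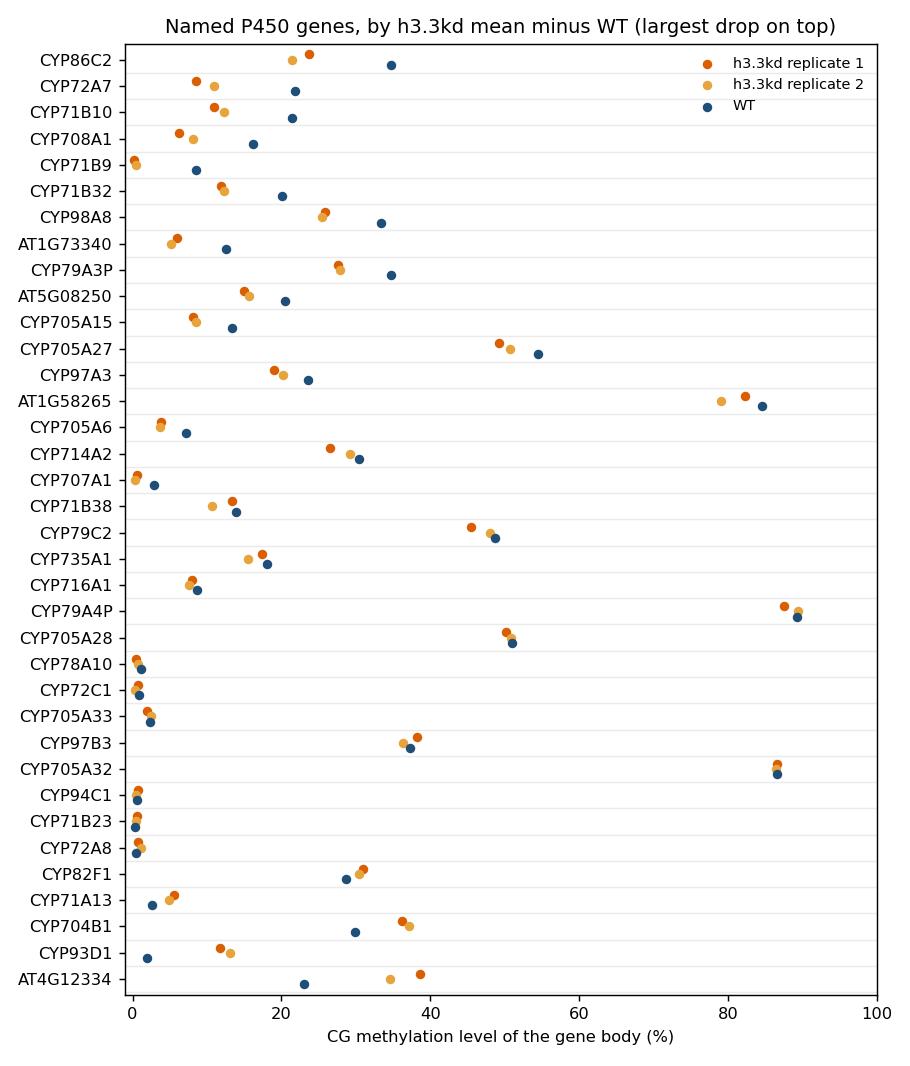
Gene body CG methylation level (%) of the 36 P450 genes named by the fixed rule, ordered by *h3.3kd* mean minus WT with the largest drop on top. Each gene has a point for *h3.3kd* replicate 1, *h3.3kd* replicate 2 and WT. CYP71B9 and CYP707A1 end near 0 in *h3.3kd*, whereas CYP705A32 has 86.6% and 86.5% in *h3.3kd* and 86.6% in WT.

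Short windows showed more changes than whole genes. Of 4996 100-bp tiles over P450 genes that had 20 or more CG calls in each library, 95 fell (1.9%, with 2.59% of all tested tiles and 3.91% of tiles over protein-coding genes) and 50 rose (1%, with 1.19% of all tested tiles and 1.57% of those over protein-coding genes). The criterion for a tile was an FDR under 0.01 together with 20 points in each of the *h3.3kd* libraries. Of the tiles at most 80% in WT, which could rise, 50 of 4865 did (1.03%, with 1.77% of such tiles over all protein-coding genes). Only tiles with at least 20% in WT could fall, and of these 95 of 467 did (20.3%, with 17.4% of such tiles over all protein-coding genes). The family thus had a lower share than other genes over all tiles and not over the tiles that could fall, and neither difference was tested. At least 1 tile fell in 59 members (23.8%, with 34.4% of genes) and at least 1 rose in 39 members (15.7%, with 21.7% of genes).

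The 95 that fell averaged 12.9% and 14.1% in *h3.3kd* and 53.9% in WT, 54 of them lying under 5% in *h3.3kd* replicate 1. The 50 that rose averaged 51.3% and 51.4% in *h3.3kd* and 8.78% in WT, and 36 of them were under 5% in WT. Counting a tile once for each gene it overlaps, with genes cut into 3 equal parts, the 5′ part held 15 that fell and 13 that rose of 1713, the middle part 40 and 15 of 1613, and the 3′ part 40 and 22 of 1675. By the part of the gene that filled most of the tile, 72 of the falls and 41 of the rises were in coding sequence. Introns as defined above held 17 and 8, and untranslated regions 6 and 1.

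CYP97A3, a carotene ring hydroxylase of the plastid, had the most called tiles and changed in both directions. Its level over the whole gene was 19.0% and 20.2% in *h3.3kd* and 23.6% in WT. Over its last 30%, however, it was 19.5% and 24.0% in *h3.3kd* and 46.3% in WT, and 5 tiles fell between 2148 and 2948 bp from the TSS. Upstream of these, 2 tiles rose. The tile 1548 bp from the TSS had 95.6% and 90.7% in *h3.3kd* and 2.08% in WT. The sites with the most extreme fall and rise among those whose 30 bases lay wholly in coding sequence or in an intron were the following.
CYP97A3, chr1:11399128-11399157, plus strand: aatgtggtagcaatCGcaatgcttattcga
CYP97A3, chr1:11397332-11397361, plus strand: agatatggcgtagaCGaaggcgtgccattg
The first of these sites, near the 3′ end, was at 0% in both *h3.3kd* libraries and 82.5% in WT. The second was at 80.6% and 68.2% in *h3.3kd* and 0% in WT.

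CYP705A15 is the longest member (5826 bp), with 8.18% and 8.49% in *h3.3kd* and 13.4% in WT. Of its 5 called tiles 4 lay outside the exons of the transcript with the longest coding sequence, the last of them at the end of the gene. AT1G73340 had 5.93% and 5.17% in *h3.3kd* and 12.6% in WT, with 4 tiles that fell and 1 that rose. AT5G08250 had 15.02% and 15.7% in *h3.3kd* and 20.4% in WT, with 3 that fell and 1 that rose. Falls and rises thus occurred in a single gene in both.

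**Figure D4:**
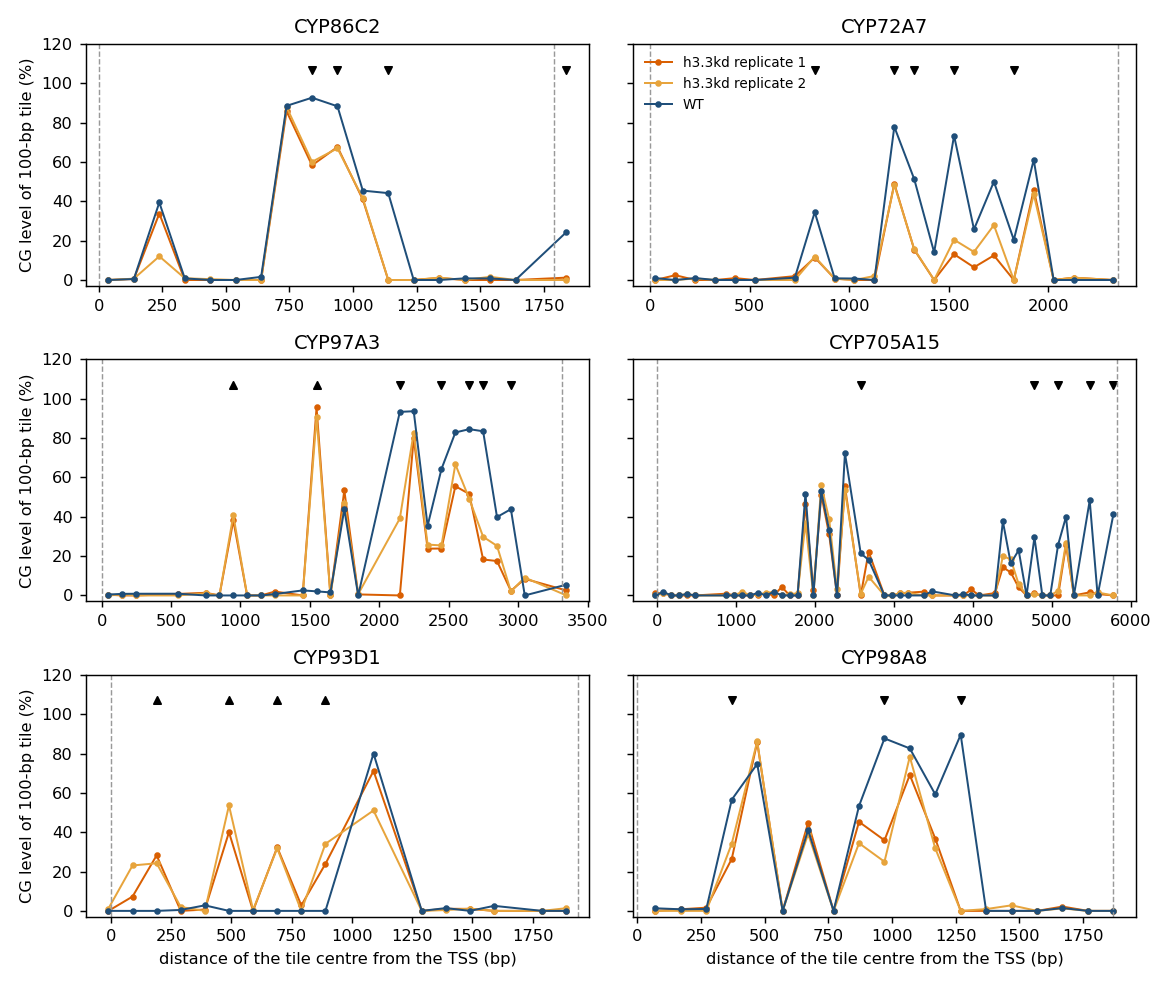
CG methylation level (%) of 100-bp tiles against the distance of the tile centre from the TSS (bp) in 6 P450 genes, with the *h3.3kd* libraries and WT as separate lines and dashed lines at the gene ends. Triangles at the top mark called tiles, pointing down for a fall and up for a rise. The 5 falls of CYP97A3 lie downstream of its 2 rises, and the 4 rises of CYP93D1 lie upstream of its 1 block methylated in WT.

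The haem signature gives a stretch that 218 of the 248 members share, and it lies late in the gene, at a median of 81.3% of the way between TSS and TES. Its 30 coding bases lay within 1 exon in 216 members and held 329 CG dinucleotides, with none in 48 members. Pooled over members, CG methylation of this stretch was 10.14% and 11.3% in *h3.3kd* (mean 10.7% ± 0.845) and 11.5% in WT, a difference smaller than the spread between the *h3.3kd* libraries. Of the 156 members with 20 or more CG calls there in each library, 123 were under 2% in WT and 16 were at 20% or more.

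In 4 of these 16, WT exceeded each *h3.3kd* library by 20 points or more, and in 2 of all 156 members each *h3.3kd* library exceeded WT by as much. Over all protein-coding genes 17.4% of tiles that could fall did, and 1.77% of those that could rise, by a rule that also asks for the FDR. No difference between the haem stretch and other sequence is given. The 6 members with such falls or rises were singled out after their values were seen and carry no test. Their stretches are shown with CGs in capitals.
CYP97A3, chr1:11398992-11399021, plus strand: ttCGgtggaggacCGCGgaaatgtataggc
CYP89A9, chr3:824860-824889, minus strand: tttggagCGggaCGaCGgatgtgtccCGgc
CYP705A33, chr3:7346784-7346813, plus strand: ttCGgCGgaggaaggagaggctgtcctgga
CYP51G1, chr1:3940394-3940423, plus strand: ttCGgagggggaaggcaCGggtgccttgga
CYP705A27, chr1:18720816-18720845, plus strand: ttCGggagCGgaagaagagcatgtccagga
CYP705A3, chr4:8771598-8771627, plus strand: tttggcagCGgaaggagaggatgtcctgga

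In CYP97A3 the stretch was at 57.0% and 57.1% in *h3.3kd* and 84.4% in WT. In CYP89A9, which acts on chlorophyll breakdown products, it was at 31.3% and 42.9% in *h3.3kd* and 77.3% in WT. In CYP705A33 it was at 21.9% and 25.5% in *h3.3kd* and 67.7% in WT. CYP51G1, the sterol demethylase of the membrane sterol pathway, had 0% and 8.93% in *h3.3kd* and 43.9% in WT there, although the whole gene stood at 22.3% and 24.3% in *h3.3kd* and 22.5% in WT. The rises were 35.5% and 38.3% in *h3.3kd* and 0% in WT for CYP705A27, and 96.6% and 85.4% in *h3.3kd* and 0% in WT for CYP705A3, whose single CG had 25 calls or more in every library.

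The *h3.3kd* libraries did not always match. In CYP705A28 the only CG of the stretch was at 0% in replicate 1 and 80.6% in replicate 2, against 96.9% in WT.

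**Figure D5:**
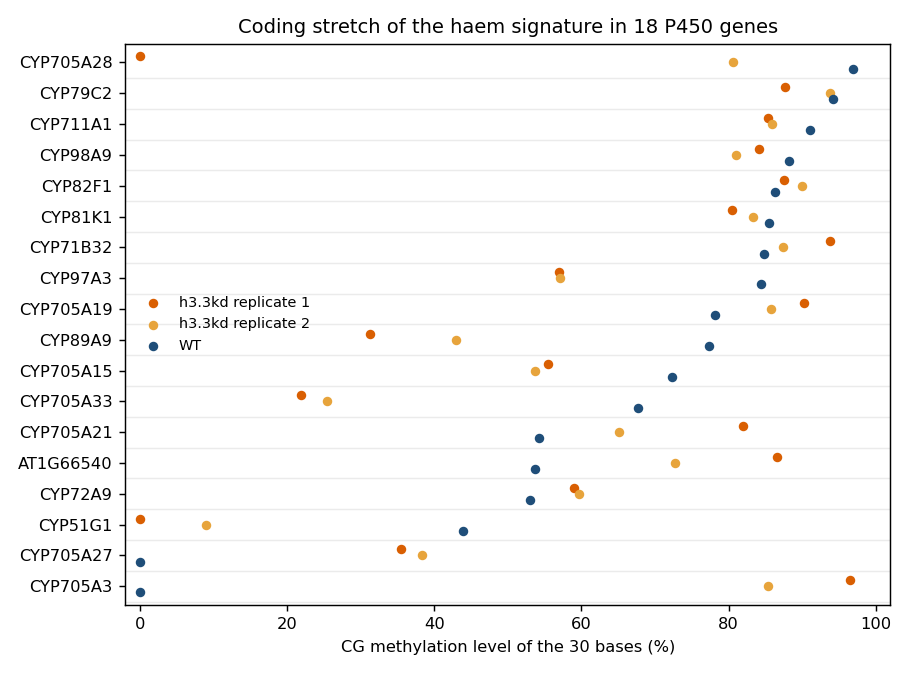
CG methylation level (%) over the 30 coding bases of the haem signature in the 16 members at 20% or more in WT and the 2 members in which each *h3.3kd* library exceeded WT by 20 points or more, ordered by WT level. Points are *h3.3kd* replicate 1, *h3.3kd* replicate 2 and WT. CYP79C2 has its points together, at 87.6% and 93.8% in *h3.3kd* and 94.2% in WT, whereas CYP705A28 has its *h3.3kd* libraries far apart.

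By role, the brassinosteroid, jasmonate and CYP78A genes were nearly unmethylated. The 7 brassinosteroid genes among the members (of 9 listed), which include the C-22 hydroxylase gene *DWF4* and the inactivating enzyme gene CYP72C1, all had under 1% CG methylation in WT, with a pooled 0.528% ± 0.0428 in *h3.3kd* and 0.533% in WT. No tile of these was called. CYP72C1 was the highest in WT, with 0.675% and 0.366% in *h3.3kd* and 0.895% in WT. The 4 jasmonate-oxidising CYP94 genes (of 6 listed) were under 0.6% in WT, as CYP94C1 with 0.748% and 0.419% in *h3.3kd* and 0.538% in WT. The 6 CYP78A genes, which act in organ growth, had at most 1.08% in WT, in CYP78A10, which stood at 0.431% and 0.789% in *h3.3kd*. These levels were close to the CHH level given above, and no gene or tile of these 3 groups was called.

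The genes of glucosinolate and camalexin synthesis were also low. Of 15 listed, 14 were members, with a median of 0.589% in WT and no called gene or tile. CYP71A13, which makes a nitrile intermediate of camalexin, was the highest, with 5.58% and 4.97% in *h3.3kd* and 2.58% in WT (FDRs of 3.91e-07 and 3.05e-05 in the exact tests, under 10 points). The 11 genes of cutin, suberin, wax and sporopollenin had a median of 0.644% in WT, with CYP704B1 the only one above 2%.

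Methylation was higher in genes of other pathways. The 4 gibberellin genes (of 6 listed) had a median of 20.2% in WT, against 2.18% over all members, with pooled levels of 17.0% ± 0.673 in *h3.3kd* and 19.4% in WT. CYP714A2, which deactivates gibberellins, had 26.5% and 29.2% in *h3.3kd* and 30.4% in WT. The gibberellin genes had 3 tiles that fell of 108 tested, 1 each in CYP714A2, CYP88A3 and CYP72A9, and none that rose. Over all protein-coding genes 3.91% of tiles fell and 1.57% rose. In the abscisic acid 8′-hydroxylase genes the pooled level was 0.457% ± 0.0156 in *h3.3kd* and 1.70% in WT, since CYP707A3, with 0.365% and 0.620% in *h3.3kd* and 2.75% in WT, also contributed.

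Of the 5 phenylpropanoid and flavonoid genes (of 7 listed), CYP98A8, which hydroxylates pollen phenolamides, had 25.9% and 25.5% in *h3.3kd* and 33.4% in WT. Its FDRs in the exact tests were 1.63e-06 and 5.07e-07, and 3 tiles fell in it. CYP98A3, the hydroxylase of lignin synthesis, had 5.10% and 1.404% in *h3.3kd* and 8.51% in WT. Altogether 6 tiles fell and none rose in this group of 108 tiles, beside 3.91% and 1.57% of tiles over protein-coding genes. The 8 sterol and carotenoid genes were split between the *CYP710A* sterol desaturase genes, under 1%, and CYP51G1, CYP97A3, CYP97B3 and *LUT1*, at 10% or more in WT. Of the 193 tested tiles of these 8 genes 9 fell and 4 rose. With so few tiles called, no difference between a role group and other genes is given. CYP97B3 had 38.3% and 36.3% in *h3.3kd* and 37.3% in WT, so that WT lay between the *h3.3kd* libraries, although 2 tiles fell and 1 rose in it.

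The 7 terpenoid genes went both ways. CYP82G1, which makes volatile homoterpenes, had 0.530% and 0.366% in *h3.3kd* and 4.82% in WT. CYP708A2, the thalianol hydroxylase, had 12.4% and 12.7% in *h3.3kd* and 8.08% in WT, with 2 tiles that rose, and CYP705A5 of the same gene cluster had 3.41% and 2.92% in *h3.3kd* and 0.213% in WT. CYP716A1 was the highest in WT, with 7.99% and 7.56% in *h3.3kd* and 8.62% in WT. In the cytokinin and strigolactone group CYP735A1 had 17.4% and 15.6% in *h3.3kd* and 18.03% in WT. The strigolactone gene CYP711A1 had 28.0% in *h3.3kd* replicate 1 but 16.9% in replicate 2, against 17.5% in WT.

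By evolutionary clan, the 148 members of the CYP71 clan had 5.46% ± 0.0918 in *h3.3kd* and 6.08% in WT, and the 32 of the CYP86 clan 4.62% ± 0.270 in *h3.3kd* and 5.37% in WT. The 19 members of the CYP72 clan had 7.69% ± 0.135 in *h3.3kd* and 9.02% in WT, and the 24 of the CYP85 clan 4.64% ± 0.101 in *h3.3kd* and 4.81% in WT. Within families the direction was not uniform. The 10 CYP72 genes had 9.30% ± 0.0651 in *h3.3kd* and 11.7% in WT, whereas the 6 CYP702 genes had 8.17% ± 0.170 in *h3.3kd* and 7.10% in WT. In both *h3.3kd* libraries 7 CYP72 genes were lower and 2 higher, and 1 CYP702 gene was lower and 3 higher.

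The tandem arrays showed these directions side by side. The CYP72A array on chromosome 3 (8 genes, chr3:4912324-4939871) had 12.0% ± 0.202 in *h3.3kd* and 15.3% in WT. In it 6 of 8 genes were lower in both *h3.3kd* libraries, as were 51.8% of all tested genes. Of its 175 tested tiles 12 fell and 2 rose, beside 3.91% and 1.57% of tiles over protein-coding genes. CYP72A11 had 20.1% and 19.6% in *h3.3kd* and 27.1% in WT. CYP72A8, immediately downstream of CYP72A7, was almost unmethylated, with 0.769% and 1.15% in *h3.3kd* and 0.441% in WT. Neighbours of one origin thus ranged between 0.441% and 31.1% in WT. The CYP71B16 to CYP71B24 run of 9 genes had 1.964% ± 0.128 in *h3.3kd* and 1.30% in WT. In it 7 of 9 genes were higher in both *h3.3kd* libraries, as were 25.7% of all tested genes. Its median gene had 0.678% in WT, a level at which no direction is given above. These arrays were picked after their values were seen, and the shares were not tested. In CYP71B21 the level was 4.83% and 3.95% in *h3.3kd* and 0.678% in WT, and in CYP71B17 it was 2.92% and 2.30% in *h3.3kd* and 0.558% in WT.

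A pooled CHG level of at least 10% was found in 7 members, and none was called in CHG or CHH over its body (0% in each, with 0.186% of genes lower and 0.0408% higher in CHG and 0% in CHH). At an unadjusted p under 0.05 in both exact tests, 11 members were lower and 1 higher in CHG (801 and 303 of all 26934 tested genes), and 10 lower and 2 higher in CHH (750 and 405 of all 27221 tested genes). The 7 members together had 41.05% ± 0.19 CG methylation in *h3.3kd* and 44.2% in WT. CYP79A4P and CYP79A3P bear pseudogene names. The CG difference of CYP79A3P was -6.94 points, or -2.41 as a mean of sites. CYP79A4P had 87.5% and 89.4% CG in *h3.3kd* and 89.3% in WT, with CHG at 43.5% and 47.1% in *h3.3kd* and 46.0% in WT. CYP705A32 was at 86.6% and 86.5% CG in *h3.3kd* and 86.6% in WT, with CHG at 38.2% and 38.7% in *h3.3kd* and 42.5% in WT.

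The largest CHG difference of the 7 was in CYP71B32, with 14.9% and 12.4% in *h3.3kd* and 22.0% in WT (FDRs of 4.07e-06 and 1.99e-12 in the exact tests). It missed the call because the difference was under 10 points in both *h3.3kd* libraries. Its CG level was 11.9% and 12.2% in *h3.3kd* and 20.03% in WT. CYP82F1 had 11.8% and 11.4% CHG in *h3.3kd* and 16.2% in WT, while its CG level was 30.98% and 30.5% in *h3.3kd* and 28.6% in WT. Genes with high CG and a CHG level under 10% were CYP705A27, with 49.2% and 50.7% CG in *h3.3kd* and 54.5% in WT, CYP705A28, with 50.2% and 50.8% in *h3.3kd* and 51.0% in WT, and CYP79C2, with 45.5% and 48.1% in *h3.3kd* and 48.6% in WT. AT1G58265, next to CYP79C2 but among the 7 members with at least 10% CHG, had 82.3% and 79.0% CG in *h3.3kd* and 84.6% in WT.

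Upstream of the genes, CG methylation of the 1 kb before the TSS fell in 4 of 247 members (1.62%, with 2.39% of all tested genes) and rose in 1 (0.405%, with 0.741% of all tested genes). The 1-kb window of CYP71B38 lost nearly all of it, with 1.22% and 0.406% in *h3.3kd* and 26.2% in WT (FDRs of 3.25e-50 and 8.42e-58 in the exact tests). That of CYP705A6 had 16.7% and 7.03% in *h3.3kd* and 30.8% in WT. No other protein-coding gene overlapped either window. In the 3 other cases the window ran into a neighbouring member. The window of CYP72A8 shares 884 bp with CYP72A7 and had 12.7% and 18.3% in *h3.3kd* and 35.8% in WT. The window of CYP705A33 shares 484 bp with CYP705A32 and had 47.4% and 41.8% in *h3.3kd* and 28.1% in WT. The window of CYP71B23, 354 bp of it over CYP71B3, fell in CG, with 36.7% and 35.9% in *h3.3kd* and 47.6% in WT. It was the only upstream window called in CHG (0.408%, with 0.563% of all tested genes lower and 0.219% higher; in CHH none was called, with 0.00367% of all tested genes lower), with 27.8% and 27.2% in *h3.3kd* and 40.1% in WT. The bodies of CYP705A33 and CYP71B23 were under 3% in all libraries.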

How the data were processed

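Bisulfite sequencing libraries of mature leaves were analysed, 2 from *h3.3kd* and 1 from WT. The authors deposited counts, the numbers of unconverted (C) and converted (T) calls at each cytosine, made by aligning reads to TAIR10 with BS Seeker and collapsing duplicate reads. Where C and T counts of a cytosine were on separate lines (1.23% to 1.25% of cytosines), they were summed. Methylation levels are C/(C+T) pooled over the sites of a region, expressed in percent.

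Each *h3.3kd* library was compared with WT by a two-sided Fisher's exact test per gene body, 1 kb upstream window and 100-bp tile, with Benjamini-Hochberg adjustment over all features of the genome. Genes needed 10 sites and 100 calls in every library, and tiles 20 calls. A change had to have an FDR under 0.01 and at least 10 points (tiles 20) of the same sign in both libraries. These tests compare libraries, and Wilson intervals cover counting error only.

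The genes described were those called over the body or upstream, the 5 largest drops and 3 largest rises, the 6 highest in WT, those with at least 10% CHG, those with the most called tiles and the highest of each role list. Further genes of role lists and arrays and those of the haem stretch were named after their values were seen. Members and lists were chosen with earlier results of these data known. Alternatives were other size thresholds, site means, medians over genes, call minimums, coding sequence only, members with CHG under 5%, limma on log2 ratios of counts, and leaving out each *h3.3kd* library; restricting members to those with the haem signature was added after seeing the data. Python 3.11.15, numpy 2.4.6, scipy 1.17.1, pandas 2.3.3, numba 0.67.0, matplotlib 3.10.9, R 4.3.3 and limma 3.58.1 were used.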

Additional observations from a re-analysis of the deposited data

How the results depend on the processing

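No paired analysis was possible because WT has 1 library, so that the groups share fewer than 2 replicate numbers. With 1 WT library, an error of that library enters every difference. The 2 genes that fell and 1 that rose became 13 and 4 at a minimum of 5 points (2341 and 360 over all genes) and 0 and 0 at 20 points. Over coding sequence only, 4 fell (1002 over all genes, beside 389 for whole bodies). Leaving out *h3.3kd* replicate 1 gave 3 that fell and 2 that rose (710 and 136 over all genes), and leaving out replicate 2 gave 4 and 2 (523 and 154). With members restricted to those with the haem signature, an alternative chosen after seeing the data, 0 rose, since AT4G12334 lacks it. limma called 0 in each direction, with a lowest FDR of 0.204 over all genes, and 30 members lower and 20 higher at an unadjusted p under 0.05 (2371 and 1571 of all 26970 tested genes).

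The pooled CG difference of -0.685 points was -0.470 as a mean of sites, -0.0539 as a median over genes and -0.554 over members with CHG under 5%, and -0.764 to -0.605 without 1 library. The CHG difference of -0.163 was -0.0941 as a mean of sites, -0.0408 as a median, -0.146 at sites with 10 calls, -0.0628 in coding sequence and -0.0530 over members with CHG under 5%. For CHH (-0.0548) these were -0.0199, -0.0137, -0.0501, -0.0165 and -0.0191. Site means gave -0.0632 in the first 30% of genes and -0.761 in the last 30%. At 40 points 33 tiles fell and 14 rose, and without 1 library 115 to 127 fell and 72 to 84 rose. At 5 points 12 upstream windows changed, and without 1 library 8 to 9. For CHG and CHH together 1 gene changed at 5 points. CYP708A1 (-10.03) and CYP71B10 (-10.6) passed the call without *h3.3kd* replicate 2, and CYP93D1 (11.1) without replicate 1. The pooled differences kept their sign in these alternatives. Among single genes the sign changed in 7, none of them called over its body: with site means in CYP705A28 (-0.51 to 1.72), CYP705A32 (-0.021 to 0.56), CYP716A1 (-0.85 to 0.076) and CYP94C1 (0.046 to -0.028), and without 1 *h3.3kd* library in CYP94C1 (-0.12), CYP705A32 (0.053), CYP705A33 (-0.18 to 0.11), CYP97B3 (-0.029 to 0.97) and CYP79A4P (-0.83 to 0.13). The cause of these shifts was not tested.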

Other observations

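The electron donors of the P450s, which are not members, differed among themselves. The P450 reductase gene *ATR1* had 25.8% and 25.5% CG methylation over its body in *h3.3kd* and 31.1% in WT, with 7 tiles that fell and 1 that rose of 41. *ATR2* had 7.54% and 6.69% in *h3.3kd* and 11.5% in WT, with 2 tiles that fell. The cytochrome b5 gene *CB5-A* had 10.14% and 9.46% in *h3.3kd* and 3.67% in WT, with 1 tile that rose. Together the 7 genes had 10 tiles that fell and 2 that rose of 138 tested, beside 3.91% and 1.57% of tiles over protein-coding genes. None of the 7 genes was called over its body, beside 1.44% of all tested genes lower and 0.304% higher. With so few genes no difference from other genes is given.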
